A study of Mus musculus with 10 samples.

Results

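The 8 genes described here belong to the IL-33 pathway: the cytokine Il33, its receptor Il1rl1 (ST2), the co-receptor Il1rap, the inhibitory receptor Sigirr, the adapter Myd88, the kinases Irak4 and Irak1, and the ubiquitin ligase Traf6. They were chosen by symbol, and all 8 matched 1 identifier each among the 53465 genes counted in mouse lung. The samples were 10 lung libraries from BALB/c mice, 5 from controls described as untreated and 5 from mice given IL-33 by the nasal route. That dose was 1 µg in 35 µL, once daily over 5 days, and lungs were collected 24 hours after the final dose. The labels name no genetic change, age, sex or vehicle, so the effects of instillation and of IL-33 cannot be told apart.

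IL-33 belongs to the IL-1 cytokine family. It is stored in the nucleus of barrier and stromal cells and acts as an alarm signal once it leaves a damaged cell. Outside the cell it binds ST2, which then pairs with the accessory chain IL1RAP. The joined intracellular TIR domains recruit MYD88, which assembles with IRAK4 and IRAK1, and TRAF6 passes the signal on to NF-kB and MAP kinases. In lung, ST2 is known from group 2 innate lymphoid cells, mast cells, regulatory T cells and T helper 2 cells, while IL-33 in mouse is known mainly from alveolar type 2 cells and fibroblasts. SIGIRR is a single immunoglobulin domain receptor that dampens signalling by this family.

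RefSeq places 2 transcription starts in Il33 and 2 in Il1rl1, the genes with the largest changes below, and these promoters are shown because either start could carry the change. Gene counts add up reads from both starts and from membrane and soluble ST2 forms, which were not separated. Each window runs from 250 bases before the start to 50 after it, on the plus strand of GRCm38.p6. The Il33 windows are chr19:29924863-29925162 and chr19:29945540-29945839, and their starts lie 20677 bases apart. The Il1rl1 windows are chr1:40429320-40429619 and chr1:40439379-40439678, 10059 bases apart. Capitals mark matches, on either strand, to the letters GATAA (the GATA factor core), TGANTCA (AP-1), TTC and GAA with any 4 bases between them (STAT6), or GGG and CC with any 5 bases between them (a loose form of the NF-kB site).
Il33 first start: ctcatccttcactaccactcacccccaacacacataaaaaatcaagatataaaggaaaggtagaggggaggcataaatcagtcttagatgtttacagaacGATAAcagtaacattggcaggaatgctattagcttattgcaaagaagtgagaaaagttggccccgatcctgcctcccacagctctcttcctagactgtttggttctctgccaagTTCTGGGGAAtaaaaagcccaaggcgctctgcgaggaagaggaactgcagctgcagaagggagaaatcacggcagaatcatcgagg
Il33 second start: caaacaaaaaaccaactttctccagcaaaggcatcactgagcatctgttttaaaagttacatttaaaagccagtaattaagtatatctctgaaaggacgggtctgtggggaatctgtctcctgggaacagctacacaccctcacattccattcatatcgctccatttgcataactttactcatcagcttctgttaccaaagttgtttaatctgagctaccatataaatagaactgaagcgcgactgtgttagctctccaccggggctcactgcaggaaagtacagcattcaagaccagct
Il1rl1 first start: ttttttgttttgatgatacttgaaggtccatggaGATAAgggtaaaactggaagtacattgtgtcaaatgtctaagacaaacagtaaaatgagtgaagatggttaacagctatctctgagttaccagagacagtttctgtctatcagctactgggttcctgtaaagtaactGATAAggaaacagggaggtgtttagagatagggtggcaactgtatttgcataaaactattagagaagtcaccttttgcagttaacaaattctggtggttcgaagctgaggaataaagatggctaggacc
Il1rl1 second start: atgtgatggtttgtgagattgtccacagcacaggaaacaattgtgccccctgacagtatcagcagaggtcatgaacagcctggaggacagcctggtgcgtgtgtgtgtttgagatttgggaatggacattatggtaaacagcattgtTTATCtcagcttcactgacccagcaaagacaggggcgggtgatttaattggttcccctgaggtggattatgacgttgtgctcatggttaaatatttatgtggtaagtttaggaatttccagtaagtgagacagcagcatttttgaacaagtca
The first Il33 window held 1 GATAA match and 1 match to the STAT6 form, which begins 36 bases before the start, and the second held none of the 4 motifs. The first Il1rl1 window held 2 GATAA matches and the second held 1, read on the opposite strand. No 2 of these matches overlapped. Among 32841 RefSeq promoter windows of the same length, GATAA occurred in 25.4%, the STAT6 form in 7.0%, TGANTCA in 7.8% and the NF-kB form in 50.8%. The Il33 windows held 6 and 5 CpG pairs and the Il1rl1 windows 1 and 3, against a median of 7 over all windows. The windows of Il1rap, Myd88, Irak1, Irak4 and Traf6 held 13 to 33. Sigirr had no entry. A match is a stretch of letters and was not tested as a binding site.

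Repeated IL-33 was followed by a 30.4-fold higher level of Il1rl1, a 3.69-fold higher level of Il33 and a 2.07-fold lower level of Il1rap. The 5 other genes moved by 1.52-fold or less. Of the 8 genes, 6 were higher and 2 were lower in IL-33 lungs at an adjusted p of 0.05 (quasi-likelihood test of edgeR, Benjamini-Hochberg adjusted over 15695 genes). In the same fit 69.9% of all tested genes were called, 35.1% higher and 34.8% lower, so a call alone sets none of the 8 apart. Changes of at least 2-fold were seen in 3 of the 8, against 23.3% of all tested genes (14.5% higher, 8.79% lower). The control and IL-33 values did not overlap for any of the 8 genes, against 56.5% of all tested genes without overlap. With library size alone as the scale the Irak1 groups did overlap, 116.2 to 130.2 in controls and 129.6 to 146.2 CPM in IL-33 lungs. CPM here and below are read counts scaled to a common library size, with TMM factors unless said otherwise.

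**Figure D1:**
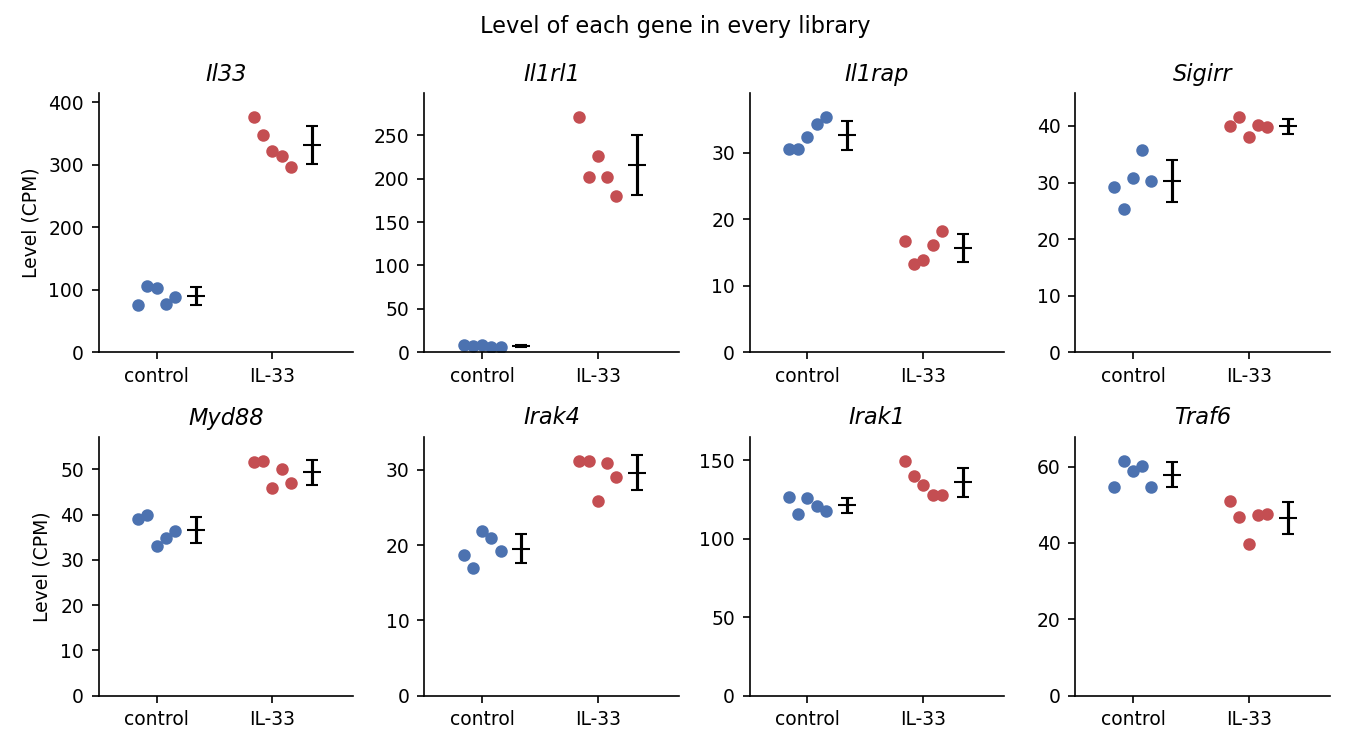
Level of each gene in CPM (linear axis from 0) in the 5 control (blue) and 5 IL-33 (red) libraries, with the mean and SD as black bars. Il1rl1 sat between 6.07 and 7.99 CPM in controls and between 180 and 271 CPM after IL-33, while Il1rap is the gene with the clearest drop.

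Il33 (ENSMUSG00000024810, chromosome 19, 29925114 to 29960718 on GRCm38) stood at 76.2, 106.5, 101.9, 76.8 and 88.3 CPM in controls 1 to 5. In IL-33 libraries 1 to 5 it stood at 376, 347.5, 322, 315 and 297 CPM. The lowest IL-33 library was thus well above the highest control, and IL-33 library 1 was the highest. The mean went from 90.0 ± 14 to 331.5 ± 30.9 CPM (SD, n = 5 and 5), a log2 fold change of 1.88 ± 0.12 (SE) with an edgeR adjusted p of 1.65e-08. Of the 15695 genes tested, 944 (6.02%) had a larger rise. The messenger RNA of the lung, not the instilled cytokine, is what these reads count.

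Alveolar type 2 cells and fibroblasts, the cells best known to hold IL-33 in mouse lung, had mostly lower marker levels after IL-33. Of 7 alveolar type 2 markers 5 were lower and 1 was higher. Their summed level was 18720 to 21660 CPM in controls and 15830 to 19100 CPM in IL-33 lungs, with slight overlap. Sftpc, the largest part of that sum, was not called in this fit (log2 -0.05). Of 6 fibroblast markers 4 were lower and 2 higher, at 1264 to 1504 CPM against 1151 to 1686 CPM, so their sums overlapped. Col1a1 rose from 505.6 ± 83.8 to 976 ± 205 CPM and Pdgfra fell from 548 ± 68.8 to 213 ± 50.3 CPM. Dcn and Lum were called lower and Pi16 higher, each with overlapping groups. Lum was not called without control 2 (edgeR adjusted p = 0.124), and Pi16 was not called without control 4 (0.08). The genes named for these 2 cell types were picked after their values were seen. Of 5 endothelial markers 3 were lower (3385 to 3676 against 1929 to 2331 CPM), and both tested basal cell markers were higher, with 0.901 to 4.49 against 5.92 to 11.4 CPM for the list of 3. Of these, Krt5 had overlapping groups and an edgeR adjusted p of 0.0457, and was not called after the length and GC correction (0.113) or without IL-33 library 4 (0.108). Alveolar type 1 markers gave 5 lower of 6 (4067 to 4528 against 1984 to 2492 CPM), and after a correction for length and GC content 6 of 7 alveolar type 2, all 6 alveolar type 1 and all 5 endothelial markers were lower. Alveolar macrophage markers gave 2 higher and 4 lower of 6, with a median log2 fold change of -0.74. Their sum, 174 to 356 against 3216 to 4162 CPM, was mostly Chil3 (180.1 ± 75.7 to 3591 ± 354 CPM), while Marco, Fabp1, Krt79 and Siglecf were lower. None of these markers was at 0 throughout a group. The part of these cell types in the rise of Il33 was not tested, and in bulk tissue a change in the number of cells of a type and a change in RNA per cell cannot be told apart.

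Il1rl1 (ENSMUSG00000026069, chromosome 1, 40429570 to 40465415) encodes ST2, the chain that binds IL-33. Controls 1 to 5 held 7.77, 7.33, 7.99, 6.30 and 6.07 CPM, from 64 to 110 reads each. In IL-33 libraries 1 to 5 it reached 271, 201.5, 226, 201.4 and 180 CPM, from 1740 to 2746 reads. Every IL-33 library was far above every control, with library 1 again the highest. The mean went from 7.09 ± 0.866 to 215.8 ± 34.9 CPM (SD, n = 5 and 5), a log2 fold change of 4.93 ± 0.13 (SE, edgeR adjusted p = 5.73e-11). Only 72 tested genes (0.459%) had a larger rise. The spread between libraries, as SD over mean, was 12.2% in controls and 16.2% after IL-33.

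Markers of cells known to carry ST2 moved in the same libraries. All 10 markers of group 2 innate lymphoid cells were higher, with a summed level of 140.7 to 171 CPM in controls and 826 to 1156 CPM after IL-33. Of 9 markers of T cells and regulatory T cells 8 were higher, at 50.8 to 78.5 against 240.0 to 431 CPM. The largest parts of that rise were Ctla4 (3.88 ± 1.22 to 115 ± 38.9 CPM) and Ikzf2 (8.93 ± 0.88 to 60.7 ± 13.7 CPM). Of the general T cell markers, Cd3g rose by 1.93 and Cd3e by 0.65 (log2), and Cd4 (0.32) was not called. Cd3e and Ikzf4 (0.54) had overlapping groups. All 5 general leukocyte markers were higher, at 663 to 1026 against 2024 to 2459 CPM, and 5 of 6 eosinophil markers, at 14.8 to 17 against 53.4 to 67.3 CPM. Mast cell and basophil markers gave 2 higher and 2 lower of 5 tested, with a median log2 fold change of 0.70. Their sum, 512 to 654 CPM in controls and 431 to 512 CPM after IL-33, was mostly Kit (309.8 ± 63.7 to 165.3 ± 31.9 CPM) and Gata2 (210.1 ± 15 to 106.9 ± 19.3 CPM), which fell. Cpa3, a mast cell protease gene, rose from 1.64 ± 0.371 to 4.98 ± 0.797 CPM and Hdc, the histamine-forming enzyme gene, from 59.7 ± 15.8 to 187 ± 24 CPM. Ms4a2 (log2 0.70) was not called and its groups overlapped. Mcpt8 and Fcer1a had 103 and 44 reads over all libraries and were not tested. Their means went from 0.329 to 1.63 and from 0.217 to 0.581 CPM, without overlap of the groups. The single marker genes in this paragraph were named after their values were seen. All 6 cell division genes were higher (42.0 to 52.1 against 518 to 806 CPM). The eosinophil granule gene Prg3 had no reads in controls, and no other of these markers was at 0 throughout a group. Their part in the rise of Il1rl1 was not tested.

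Il1rap (ENSMUSG00000022514, chromosome 16, 26581704 to 26730117) is the signalling partner that ST2 shares with the receptors for IL-1 and IL-36. Controls 1 to 5 held 30.5, 30.6, 32.4, 34.3 and 35.4 CPM, and IL-33 libraries 1 to 5 held 16.8, 13.2, 13.9, 16.2 and 18.2 CPM. The groups were far apart, with the highest IL-33 value well under the lowest control. The mean fell from 32.6 ± 2.17 to 15.7 ± 2.07 CPM (SD, n = 5 and 5), a log2 fold change of -1.05 ± 0.10 (SE, edgeR adjusted p = 6.72e-07), and 1233 genes (7.86%) had a larger fall. Its binding chain and its accessory chain thus moved in opposite directions. Il1rap also has soluble forms, which gene counts do not separate.

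Sigirr (ENSMUSG00000025494, chromosome 7, 141091175 to 141100572), the inhibitory receptor, ranged from 25.4 to 35.7 CPM in controls and from 38.0 to 41.6 CPM in IL-33 lungs. The groups lay close together but did not overlap. The log2 fold change was 0.40 ± 0.08 (SE, edgeR adjusted p = 0.000836). In IL-33 libraries its spread was no larger than counting noise (chi-square per degree of freedom 0.334). In controls its spread was larger than counting noise (4.73).

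Among the intracellular parts, Irak4, the kinase that joins MYD88 first, changed most. Irak4 (ENSMUSG00000059883, chromosome 15, 94543643 to 94581815) stood at 18.7, 17, 21.8, 21 and 19.2 CPM in controls 1 to 5 and at 31.2, 31.2, 25.8, 30.9 and 29.1 CPM in IL-33 libraries 1 to 5. IL-33 library 3, the library with the fewest reads, was the lowest of its group and still above every control. The log2 fold change was 0.60 ± 0.08 (SE, edgeR adjusted p = 3.84e-05). Myd88 (ENSMUSG00000032508, chromosome 9, 119335934 to 119341411), the adapter itself, ranged from 33.0 to 39.9 CPM in controls and from 45.9 to 51.9 CPM after IL-33. Its log2 fold change was 0.43 ± 0.06 (SE, edgeR adjusted p = 0.000147).

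Irak1 (ENSMUSG00000031392, chromosome X, 74013914 to 74023918), the kinase that IRAK4 phosphorylates, ranged from 115.6 to 126.6 CPM in controls and from 127.9 to 149.9 CPM after IL-33. The difference was the smallest of the 8, a log2 fold change of 0.17 ± 0.05 (SE, edgeR adjusted p = 0.0304). It was not called without control 2 (adjusted p = 0.0944), control 4 (0.0673), control 5 (0.0878) or IL-33 library 1 (0.0839), nor with no low-count filter (0.217), over a range of adjusted p from 0.0216 to 0.0944 when 1 library was left out. Traf6 (ENSMUSG00000027164, chromosome 2, 101678429 to 101701669), the ubiquitin ligase at the end of this relay, went the other way, from 54.5 to 61.6 CPM in controls to 39.8 to 51.0 CPM after IL-33. IL-33 library 3 was the lowest and library 1 the highest of its group. The log2 fold change was -0.31 ± 0.07 (SE, edgeR adjusted p = 0.00198).

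Fold changes over all genes depended on transcript length, with higher values for short ones, and this touched the small changes. Myd88 has 2576 exonic bases, and the median log2 fold change was 0.19 for genes of 2219 to 2847 bases. Traf6 has 7883, and the median was -0.27 for genes of 7286 to 9592 bases. After correction for exonic length and GC content in each library, Myd88 stood at 0.10 (adjusted p = 0.173) and Traf6 at -0.16 (adjusted p = 0.0686), and neither was called. Il33 then stood at 1.54, Il1rl1 at 5.01, Il1rap at -0.85, Irak4 at 0.63, Irak1 at 0.21 and Sigirr at 0.21 (log2 fold changes), all called, Sigirr with an adjusted p of 0.0455. In that fit 68.3% of all genes were called. Exons of Myd88 share 290 bases (11.3%) with Acaa1a and those of Irak4 395 bases (7.9%) with Twf1, both on the opposite strand. Acaa1a, which encodes a peroxisomal thiolase, was higher by 0.44 and Twf1, an actin-binding protein gene, had -0.40 (log2). No source used here states the strand setting of the counting, so it is not known how reads in the shared bases were counted.

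**Figure D2:**
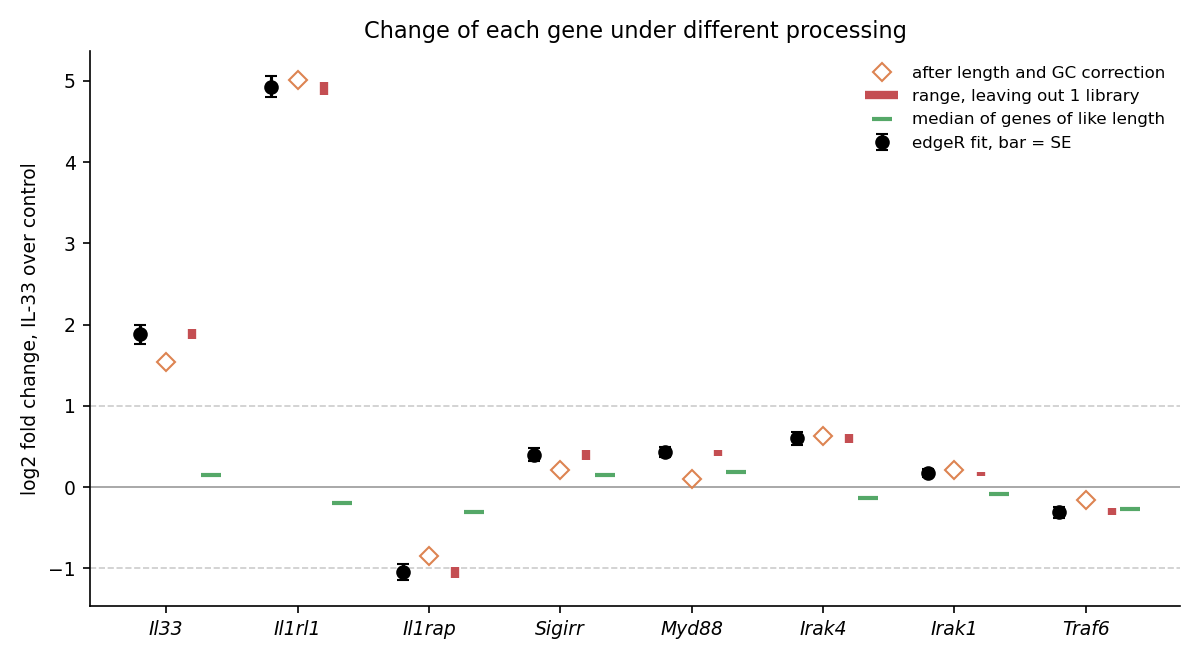
Log2 fold change of each gene, IL-33 over control. Black points are the edgeR fit with SE, open diamonds the fit after correction for length and GC content, red bars the range when 1 library is left out, and green marks the median of genes in the same of 10 bins by exonic length. Il1rl1, Il33 and Il1rap lie far from the green marks, and the corrected Myd88 and Traf6 points move toward 0.

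Levels of different genes were compared per length, as CPM per kilobase of exonic sequence. In controls the order was Il33 (31.2 ± 4.84), Irak1 (25.7 ± 1.03), Myd88 (14.2 ± 1.13), Sigirr (9.95 ± 1.22), Traf6 (7.35 ± 0.41), Irak4 (3.89 ± 0.386), Il1rap (2.87 ± 0.191) and Il1rl1 (1.03 ± 0.126), each as mean and SD of 5 libraries. Only Il33 and Irak1 overlapped among neighbours in that order. The gene of the binding receptor chain thus had the lowest level per length in controls. In IL-33 lungs Il33 was first (115 ± 10.7), and Il1rl1 (31.3 ± 5.06) and Irak1 (28.9 ± 1.95), which overlapped, came next. Myd88 (19.1 ± 1.05), Sigirr (13.1 ± 0.42), Traf6 (5.90 ± 0.52) and Irak4 (5.90 ± 0.461) followed, and Traf6 and Irak4 overlapped. Il1rap came last at 1.38 ± 0.183. With the longest annotated transcript as the length, a choice made after the data were seen, Il1rl1 was still last in controls (1.34) and second after IL-33 (40.7), and Il1rap was still last after IL-33 (3.46). In controls Il1rap (7.22) then stood above Irak4 (5.68), and Sigirr (15.2) above Myd88 (14.9) with overlap. After IL-33 Sigirr and Myd88 were level (20.1 and 20.1) and Irak4 (8.62) stood above Traf6 (7.54), each pair with overlap.

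Ratios of 2 genes within 1 library do not depend on how libraries are scaled. The values are ratios of read counts, not corrected for length, so only their change between groups is compared. That change is not corrected for the length and GC trend either. The correction moved Myd88 from 0.43 to 0.10 and Il1rap from -1.05 to -0.85 (log2), toward each other. No ratio was recomputed with it. For each control library 1 to 5, Il1rl1 over Il1rap was 0.256, 0.241, 0.248, 0.185 and 0.173. In IL-33 libraries 1 to 5 it was 16.1, 15.2, 16.2, 12.4 and 9.85, a 63.0-fold change (log2 5.98 ± 0.18, SE). Control 5 and IL-33 library 5 had the lowest ratio of their groups. Two-sided exact permutation tests of 9 ratios each gave p = 0.00794, the smallest that 5 against 5 libraries allow. The exact permutation p was also 0.00794 after Benjamini-Hochberg adjustment over the 9. Il1rl1 and Myd88 rose and Il1rap fell, each without overlap of the groups. The ratios of Il1rl1 and of Myd88 over Il1rap therefore had to separate, and their tests add nothing to the gene values. The ranges of Il33, Il1rl1 and Sigirr also fixed the separation of Il33 over Il1rl1 and of Il1rl1 over Sigirr. Those tests add nothing either. Of the 9 ratios, only Irak1 over Irak4 could have overlapped given the ranges of its genes. The ligand over receptor ratio, Il33 over Il1rl1, ran from 9.77 to 14.4 in controls and from 1.39 to 1.72 after IL-33, 8.12-fold lower. Il1rl1 over Sigirr rose 22.7-fold and Myd88 over Il1rap 2.82-fold. Irak1 over Irak4 fell from 5.75 to 6.80 in controls to 4.15 to 5.21, 1.35-fold lower (log2 -0.44 ± 0.08, SE).

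Ratios to cell markers gave the receptor and the cytokine beside the cells that may hold them. Il1rl1 over Ptprc, the gene of the leukocyte antigen CD45, ran from 0.0339 to 0.0582 in controls and from 0.539 to 0.828 after IL-33, 16.1-fold higher. Il1rl1 over Gata3, a transcription factor gene of group 2 lymphoid cells and T helper 2 cells, ran from 0.346 to 0.702 in controls and from 0.948 to 1.40 after IL-33, 2.43-fold higher. Il33 over Sftpc, the surfactant protein C gene of alveolar type 2 cells, was 3.85-fold higher, and Il33 over Pdgfra, a fibroblast gene, 9.73-fold higher. The exact permutation p was 0.00794 for each of these 4 ratios as well, and no ratio overlapped between the groups. Il33 rose and Pdgfra fell, each without overlap, so their ratio had to separate and its test adds nothing to the gene values. The ranges of Il1rl1, Ptprc, Gata3, Il33 and Sftpc likewise fixed the separation of the other ratios in this paragraph. Their tests add nothing to the gene values either. Ptprc (0.87) and Gata3 (3.64) were themselves higher and Pdgfra (-1.37) lower after IL-33 (log2), so the ratios are not levels per cell. Sftpc (-0.05) was not called, but stood at -0.88 and was called lower after the length and GC correction. Each ratio also rests on 1 marker. Log2 fold changes ran from -1.37 (Pdgfra) to 0.95 (Col1a1) among fibroblast markers. Among group 2 innate lymphoid cell markers they ran from 1.16 (Rora) to 8.97 (Il13). A ratio to another marker would therefore differ.

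**Figure D3:**
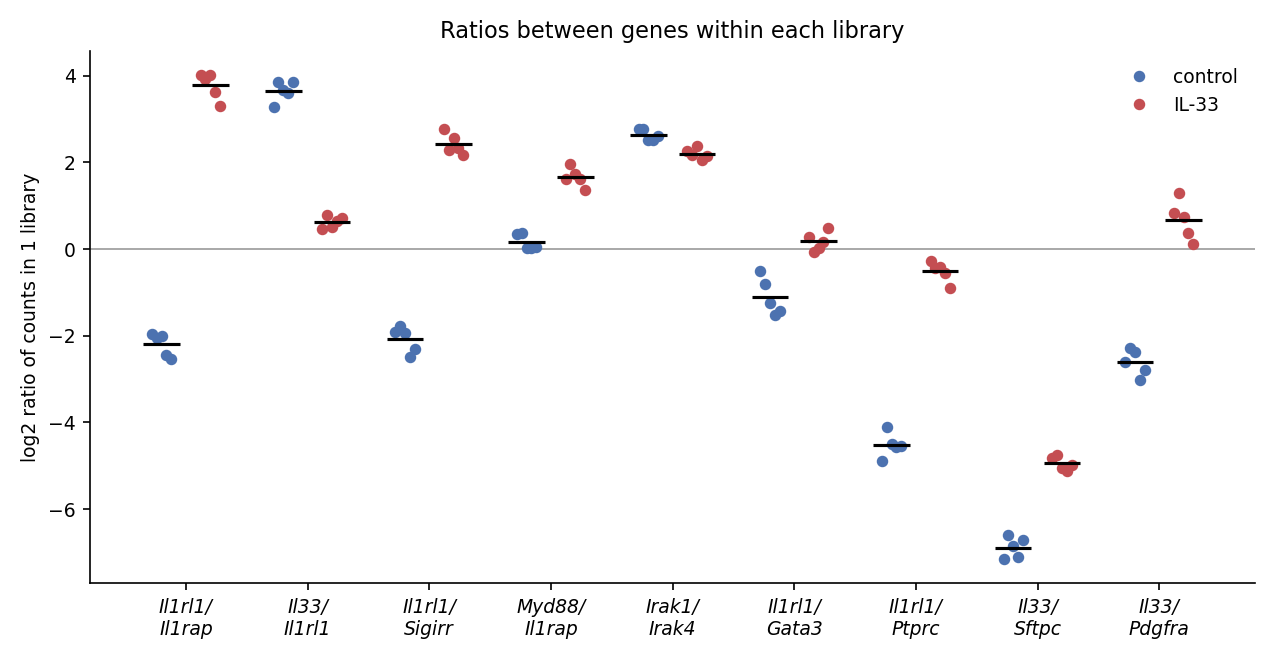
Log2 ratio of the read counts of 2 genes within each library, for 5 control (blue) and 5 IL-33 (red) libraries, with group means as black lines. The groups are separate for each of the 9 ratios, widest for Il1rl1 over Il1rap (log2 difference 5.98) and narrowest for Irak1 over Irak4 (-0.44).

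Il1rl1 lies in a row of IL-1 receptor family genes on chromosome 1, all on the plus strand, and its neighbours did not move as one block. Il18r1, the IL-18 receptor binding chain, begins 136 bases after the end of Il1rl1. It ranged from 89.4 to 174.7 CPM in controls and from 65.6 to 90.0 CPM after IL-33, with a slight overlap and a log2 fold change of -0.82 ± 0.18 (SE, edgeR adjusted p = 0.000278). The next gene, Il18rap, the IL-18 receptor accessory chain, rose from 16.1 ± 6.35 to 51.0 ± 11.3 CPM (log2 1.65, edgeR adjusted p = 3.77e-05). Slc9a4, a sodium and proton exchanger gene beyond it, fell from 8.51 ± 1.52 to 5.55 ± 0.508 CPM (log2 -0.60, edgeR adjusted p = 0.00201). On the other side, Il1rl2, the IL-36 receptor gene, had a log2 fold change of -0.10 and Il1r1, the IL-1 receptor gene, -0.02, and neither was called. Il1r2, the decoy IL-1 receptor gene and the farthest of these on that side, rose from 1.76 ± 0.986 to 48.3 ± 11.5 CPM (log2 4.75 ± 0.44, SE, edgeR adjusted p = 2.73e-08). From Il1r2 to Slc9a4 the row read higher, not called, not called, higher, lower, higher, lower.

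**Figure D4:**
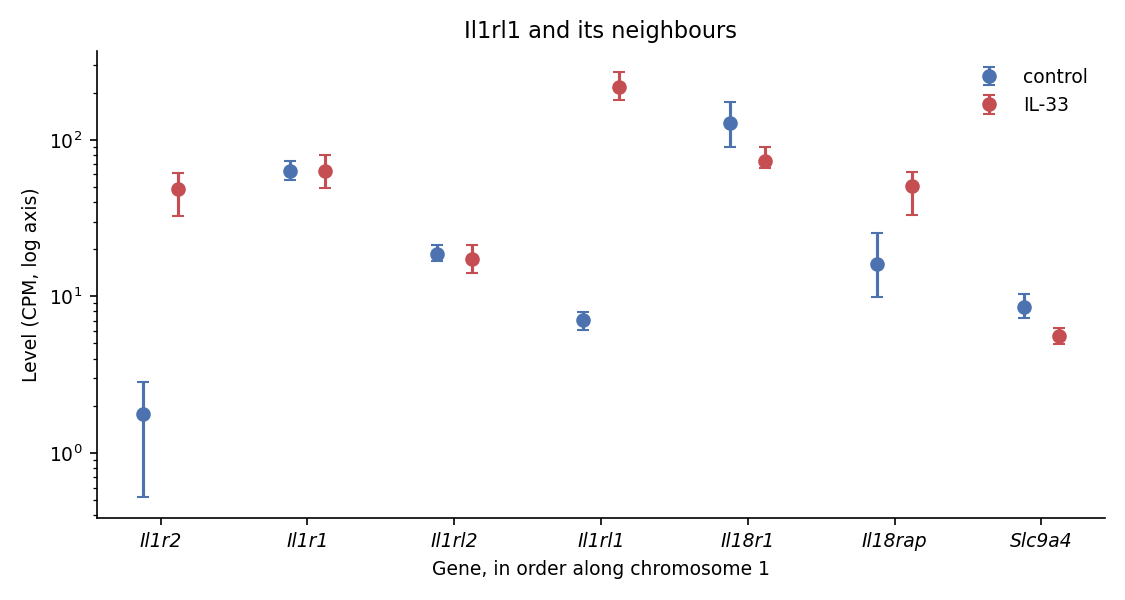
Level in CPM (log axis) of Il1rl1 and the 3 protein-coding genes on each side of it, in order along chromosome 1, as mean with the lowest and highest of 5 libraries. Il1rl1, Il1r2 and Il18rap are higher after IL-33 (red) than in controls (blue), and Il18r1 and Slc9a4 lower.

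Further genes of the pathway were read from the same fit in 5 lists. In that fit 35.1% of all tested genes were higher and 34.8% lower. Of 5 tested IL-1 receptor family genes 2 were higher and 1 lower, those named above, and the list median was -0.02 against -0.01 for all genes (log2). Il1rapl1 and Il1rapl2, receptor-like genes known from neurons, had 6 reads and 0 reads over all libraries and were not tested. In the TAK1 and IKK relay, which carries the signal from TRAF6 to NF-kB, 2 of 11 tested genes were higher and 3 lower, with a median of -0.11. Ube2n, the ubiquitin-conjugating enzyme that works with TRAF6, rose from 38.4 ± 1.06 to 56.0 ± 1.58 CPM (log2 0.54, edgeR adjusted p = 2.13e-06). Ikbkb, the IKK beta kinase gene, was higher by 0.16, and by 0.51 after the length and GC correction. It was not called without control 2 (edgeR adjusted p = 0.0537) or with no low-count filter (0.23). Peli2, a ligase gene of the Pellino family that acts on IRAK proteins, fell from 59.3 ± 9.04 to 29.6 ± 3.08 CPM (log2 -1.0, edgeR adjusted p = 4.09e-06), and Peli1 fell by 0.31 on the log2 scale, with slight overlap of the groups. Tab2, the most abundant of the list per length, had 0.11 and was not called.

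Genes that restrain the pathway gave 5 higher and 1 lower of 8 tested, with a median of 0.36. Over all tested genes 35.1% were higher and 34.8% lower. After the length and GC correction 4 of the list were higher and 2 lower, with a median of 0.21. Tnfaip3, the ubiquitin-editing enzyme A20, ranged from 37.9 to 60.9 CPM in controls and from 145.4 to 220.5 CPM after IL-33 (log2 2.0, edgeR adjusted p = 9.89e-08). Cyld, a deubiquitinase that acts on TRAF6 products, rose from 62.1 ± 5.09 to 105.0 ± 4.38 CPM (log2 0.75, edgeR adjusted p = 5.67e-07). Irak3, the IRAK family member that holds back the MYD88 complex, rose from 12.1 ± 1.04 to 18.6 ± 0.719 CPM (log2 0.62, edgeR adjusted p = 2.85e-05). Tollip, which binds IRAK1, fell from 109 ± 3.82 to 88.2 ± 2.71 CPM (log2 -0.31, edgeR adjusted p = 0.000171). Dusp1, a phosphatase gene and the most abundant of the list per length, had -0.54 with overlapping groups and was not called (adjusted p = 0.0566); it was called under 8 alternatives. Fbxl19, whose product marks ST2 for degradation, had -0.04 and was not called. Irak3 and Fbxl19 were picked out after their values were seen.

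Of 15 MAP kinase and AP-1 genes 3 were higher and 3 lower, with a median of -0.05. Both are smaller shares than over all tested genes (35.1% higher, 34.8% lower). Junb ranged from 79.3 to 205 CPM in controls and from 138.7 to 463 CPM after IL-33 (log2 1.34, edgeR adjusted p = 0.00221), with overlapping groups, and Map2k6, a p38 kinase kinase gene, was higher by 0.88. Mapk14, the p38 alpha gene, fell from 135 ± 4.41 to 89.5 ± 11 CPM (log2 -0.59, edgeR adjusted p = 3e-05) and Mapk9, the JNK2 gene, fell by 0.44 on the log2 scale. Mapk3 (ERK1), the most abundant of the list per length, was higher by 0.27, and stood at -0.11 and was not called after the length and GC correction. With that correction 4 genes of this list were higher and 7 lower. Of 10 tested genes for proteases known to cut IL-33, in mouse or human, 6 were higher and 1 lower, with a median of 0.40. After the length and GC correction 4 were higher and 3 lower, with a median of -0.07, and Cma1 (-0.10) and Casp8 (-0.06) were no longer called. Tpsab1 and Tpsb2, mast cell tryptase genes, were higher by 2.95 and 1.82, at 3.68 ± 1.16 and 2.89 ± 0.743 CPM after IL-33. Capn2, a calpain gene and the most abundant of the list per length, fell from 356 ± 40.3 to 255 ± 16.4 CPM (log2 -0.48). The neutrophil protease genes Ctsg, Elane and Prtn3 had too few reads to be tested, 5, 13 and 87 over all libraries.

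**Figure D5:**
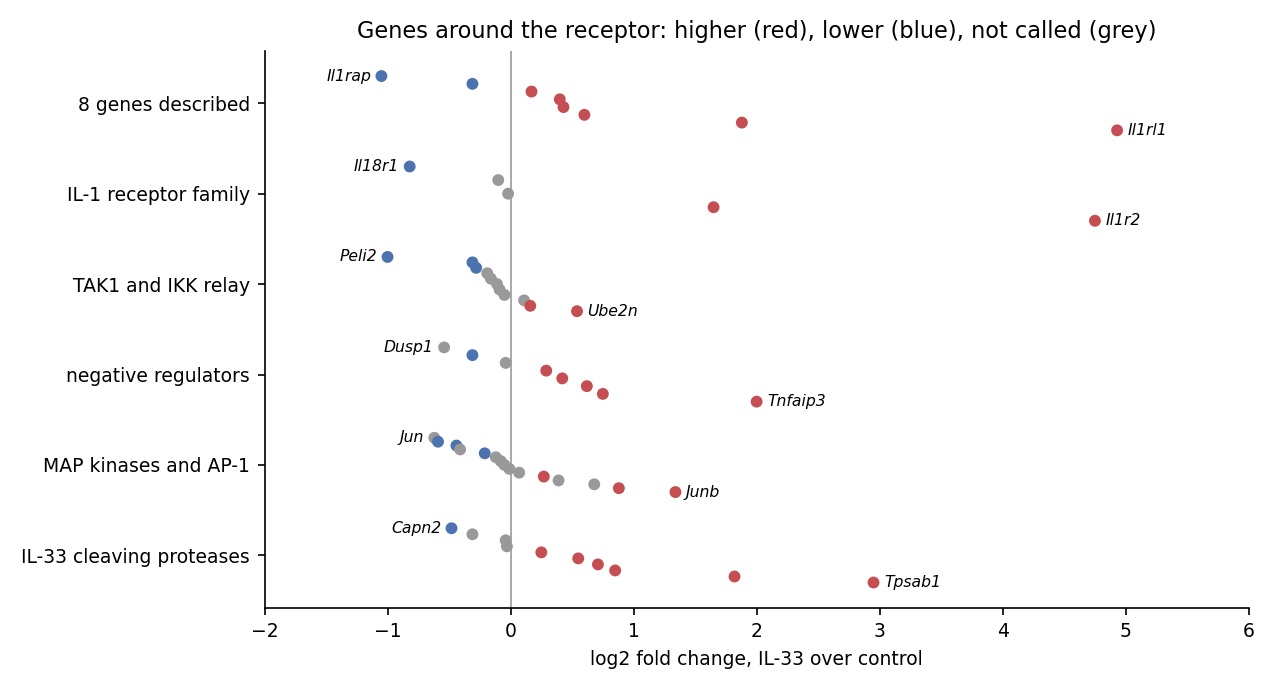
Log2 fold change, IL-33 over control, of the 8 genes and of the tested genes of 5 pathway lists, 1 point per gene. Red points were called higher, blue lower and grey not called, and the genes at the ends of each list are named. Il1rl1 (4.93) and Il1r2 (4.75) lie highest, and Il1rap (-1.05) and Peli2 (-1.0) lowest.

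The genes whose level followed Il33 most closely over the 10 libraries were Tent5a, Tmem173, Pidd1 and Fhl3, with root mean square differences of 0.133 to 0.141 log2 units between centred profiles, among 13687 genes compared. They rose by 1.87, 1.91, 1.80 and 1.86. Those closest to Il1rl1 were Acsbg1 (0.188), Ctla4 (0.264), Ccl22 (0.304) and Pclaf (0.306). Acsbg1, an acyl-CoA synthetase gene, went from 1.41 ± 0.404 to 38.3 ± 3.18 CPM, and Ctla4, an inhibitory T cell receptor gene, from 3.88 ± 1.22 to 115 ± 38.9 CPM. The measure includes the difference between the groups, so it favours genes with a rise of like size.

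Libraries held 7805175 to 13767118 reads counted in genes. The 8 genes together made up 383 to 412.5 CPM of a control library and 786 to 988 CPM of an IL-33 library. Multiply aligned records, which the counting set aside, were 15% to 16.2% in controls and 20.0% to 22.8% in IL-33 libraries. Of the 75-base windows of Il33, Il1rl1, Traf6 and Sigirr none occurred in a transcript of another gene, and of those of the other 4 genes 0.7% to 5.68% did.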

How the data were processed

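Raw counts of reads per gene were deposited for each of 10 lung libraries, with no normalization by the authors. The submitters' processing notes name FastQC 0.11.6, MultiQC 1.6, STAR 2.5.4b, HTSeq 0.9.1 and GRCm38; RNA was polyA-enriched and made into stranded libraries, per the labels' protocols. The annotation release and the strand setting were not given in the sources used. Rows naming no gene (no feature, 10.4% to 13.7% of records; ambiguous, 0.862% to 0.945%; multiply aligned) were left out. Of 53465 identifiers 53360 matched a symbol, and positions and exonic lengths came from GENCODE (GRCm38).

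All 10 libraries were fitted together in edgeR 4.0.16 under R 4.3.3 by group alone, with filterByExpr, TMM factors of 0.969 to 1.03 and the quasi-likelihood test. P-values were adjusted over all genes by Benjamini-Hochberg, with a threshold of 0.05. The biological coefficient of variation was 0.136. SEs of log2 fold changes come from log2(CPM + 0.1), the changes from the fit. In 1 library 3 reads stand for 0.218 to 0.384 CPM. Ratios of counts (0.5 added) were tested with exact permutation over libraries. The labels do not tie libraries to animals, so p-values measure only the spread between these libraries, which may be technical. Other tools were limma 3.58.1, DESeq2 1.42.0, scipy 1.17.1, pandas 2.3.3 and numpy 2.4.6 in Python 3.11.15. The fit was also run on simulated data with far fewer changed genes than were called here. That run does not test the calls in the present setting.

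The members and lists were chosen with earlier results of these data known. Named were the 8 genes, the 3 protein-coding neighbours on each side of Il1rl1, of each pathway list up to 2 called rises and 2 called falls at a mean of at least 1 CPM and the most abundant per length, and the 4 genes most like Il33 and Il1rl1. Alternatives were DESeq2 size factors, library size alone, no filter, 1 CPM in 5 libraries, limma-voom, DESeq2, a block for replicate number, an adjusted p of 0.01, scaling without the 50 most abundant genes, leaving out each library, and offsets that remove each library's spline trend (5 degrees of freedom) on exonic length and GC content, fitted on 15680 genes.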

Additional observations from a re-analysis of the deposited data

How the results depend on the processing

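Il33, Il1rl1, Il1rap, Irak4 and Sigirr kept their call and direction under every alternative that was run. Over the single libraries left out, their log2 fold changes ran from 1.82 to 1.94, 4.83 to 4.98, -1.12 to -0.99, 0.54 to 0.65 and 0.33 to 0.45. Of 160 checks of a fold change of the 8 genes 8 lost the call, 6 of them for Irak1, with the adjusted p of 0.01 among them, and the others are the length and GC fits of Myd88 and Traf6. The genes called numbered 10516 to 11089 without 1 library, 10713 with the length and GC offsets and 9316 at an adjusted p of 0.01, and 7 or 8 of the 8 genes were called without 1 library.

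With the length and GC offsets, lower calls went to 4 in the TAK1 and IKK relay and 2 among the restraining genes. They went to 7 among MAP kinase and AP-1 genes and 3 among protease genes. The fold change of Mapk3 turned to -0.11, of Il1rl2 to 0.00 and of Il1r1 to 0.05. Without 1 library Il1r1 ran from -0.12 to 0.06. None of these 3 was called in the changed fit. The cause was not tested.

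Same-numbered libraries did not pair (correlations of their deviations -0.076 to 0.221), and a replicate block gave 11122 calls and all 8 genes. For the ratios, exact sign-flip permutation over the 5 numbered pairs cannot go below p = 0.0625, so none passed. The differences are those reported, 5.98 for Il1rl1 over Il1rap, -3.02 for Il33 over Il1rl1, 4.51 for Il1rl1 over Sigirr, 1.5 for Myd88 over Il1rap, -0.44 for Irak1 over Irak4, 1.28 for Il1rl1 over Gata3, 4.01 for Il1rl1 over Ptprc, 1.94 for Il33 over Sftpc and 3.28 for Il33 over Pdgfra (log2). Il1rl1 rests on 384 control reads in all, the fewest of the 8 genes, which limits how finely its fold change is known.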
